A study of Mus musculus with 7 samples.

Results

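The 9 Hoxa genes Hoxa2, Hoxa3, Hoxa4, Hoxa5, Hoxa6, Hoxa7, Hoxa9, Hoxa10 and Hoxa11 were taken by gene symbol from a table of 48440 genes, and their RNA was followed across all 7 libraries of the series. Each library came from LSK cells, the lineage-negative, Sca1+ and cKit+ fraction of mouse bone marrow that holds stem cells and multipotent progenitors. The cells were sorted from bone marrow chimeric mice 77 days after transplantation, and 4 libraries came from wild-type donor marrow and 3 from PROSER1 KO donor marrow. Donors of the second group carried a constitutive, endonuclease-mediated disruption of Proser1, a gene whose protein interacts with the TET family of DNA demethylases. The recipients in both groups were lethally irradiated C57BL/6 mice (9.5 Gy in split doses) and had no other treatment. The ages and sex of donors and recipients are not given in the sources used here, and no sort on a donor marker is described for these chimeras, so residual host cells cannot be told apart from donor cells. The libraries of the second group are called KO-labelled below. The labels call all libraries biological replicates without tying them to animals, and p-values measure the spread between libraries.

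Hox genes encode homeodomain transcription factors that lie in 4 clusters and pattern the body axis of the embryo, with genes at 1 end of a cluster used toward the head and genes at the other end toward the tail. In blood formation the Hoxa genes of the middle and tail side are active in stem and early progenitor cells and fall as cells mature, under activation by KMT2A (MLL) complexes and repression by Polycomb complexes. HOXA9 with its partner MEIS1 is known for sustaining progenitor growth in acute myeloid leukemia.

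Depth ranged from 33143619 to 45140743 read pairs on genes per library. Values are normalized counts, that is, read pairs divided by a size factor per library, and a count of 0 allows up to 3 read pairs, or 2.54 to 3.48 normalized counts, for counting error only. Kit and Ly6a, which define the LSK gate, were present in every library. Other markers were present too: the summed megakaryocyte markers reached 7024 to 8878 for wild-type and 9223 to 11985 for the KO-labelled libraries, without overlap, and the summed plasma cell markers ranged from 170818 to 428871 and from 199947 to 298722. Taken singly, all 5 megakaryocyte markers overlapped between the groups, as did the other marker sums. Each of these lists had all its members above 0 in at least 1 library. Proser1 itself was 2088 ± 55.5 (SD, n = 4) normalized counts for wild-type and higher in each of the KO-labelled libraries, at 2387 ± 67.5 (SD, n = 3), with an adjusted p of 0.204 by limma, so the RNA does not check the labels and every direction below rests on them. In bulk libraries, fewer cells that express a gene and less RNA per cell cannot be told apart.

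The Hoxa RNA of LSK cells was concentrated on the middle and tail side of the cluster. Per kb of annotated exon, the 8 members with a measurable level fell in the order Hoxa9, Hoxa7, Hoxa5, Hoxa6, Hoxa10, Hoxa3, Hoxa2 and Hoxa4, and Hoxa11 was at or next to 0. The level was 723 ± 51.1 normalized counts per kb for Hoxa9 (SD, n = 7 libraries) and 22.4 ± 4.67 for Hoxa4. Between these, Hoxa7 had 675 ± 44.2, Hoxa5 371 ± 53.9, Hoxa6 252 ± 35.4, Hoxa10 206 ± 17.7, Hoxa3 98.0 ± 8.21 and Hoxa2 57.9 ± 9.12 normalized counts per kb. The order was read within each library.

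Each step in this order was tested by a two-sided exact sign-flip permutation test over the 7 libraries, adjusted over 7 neighbouring pairs. All 7 steps passed, with an adjusted p of 0.0313 for Hoxa6 over Hoxa10 and 0.0182 for the others, where 0.0156 is the smallest unadjusted p that 7 libraries allow. The order was read from these same libraries, and the test covers the spread between libraries, not the choice of exon length, which shifts all libraries alike. The ratio of Hoxa9 to Hoxa7 was 1.07 and that of Hoxa2 to Hoxa4 was 2.60. The Hoxa6 level exceeded that of Hoxa10 in 6 of 7 libraries. Some of these steps depend on the length used. When the same counts were divided by only the exon length that no other gene shares, Hoxa7 lay above Hoxa9 in all 7 libraries. The means were 847 against 734 normalized counts per kb, and this reverse step passed the same exact permutation test (adjusted p = 0.0182). It comes from the length alone, since read pairs on those stretches were not counted apart. With the same counts divided by the length of the longest transcript, the mean log2 ratio of Hoxa6 to Hoxa10 was -0.07. It was not beyond its spread (adjusted p = 0.328 by that exact permutation test). With that length the ratio of Hoxa3 to Hoxa2 was 3.97 in place of 1.71, and that of Hoxa10 to Hoxa3 was 1.16 in place of 2.10.

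**Figure D1:**
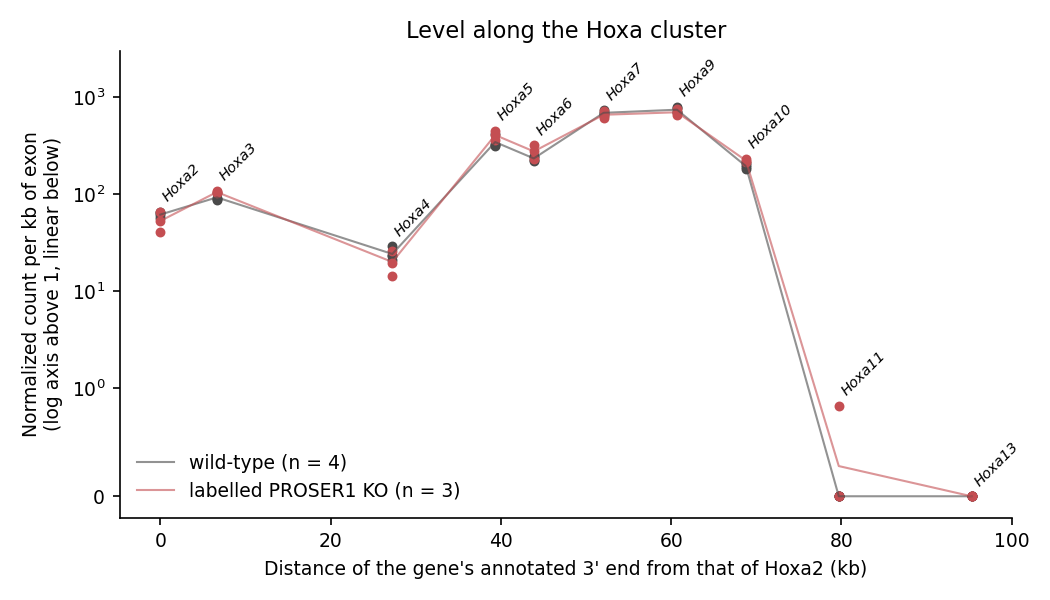
Level of the Hoxa genes along the cluster, in normalized counts per kb of exon (log axis above 1), against the distance in kb of each gene's annotated 3′ end from that of Hoxa2. Points are libraries and lines join group means; levels lie between 24.2 and 741 in the wild-type means from Hoxa2 to Hoxa10, with a dip at Hoxa4, and drop to 0 for Hoxa11 and Hoxa13.

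All 9 members are read from the reverse strand of chromosome 6, and together they span positions 52162417 to 52245810 of GRCm38, or 83.4 kb. Hoxa9 (ENSMUSG00000038227, positions 52223100 to 52231089) is a posterior Hox gene and a regulator of stem cell self-renewal. Wild-type replicates 1 to 4 held 4451, 3885, 4274 and 3936 normalized counts of Hoxa9, and KO-labelled replicates 1 to 3 held 4219, 3673 and 3789. The groups overlapped, although KO-labelled replicates 2 and 3 lay below all 4 wild-type libraries. The log2 fold change of KO-labelled over wild-type was -0.09, with a 95% interval from -0.24 to 0.06 and an adjusted p of 0.716 by limma. Hoxa9 alone took 46.3 to 53.1% of the read pairs of the 9 members.

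Hoxa7 (ENSMUSG00000038236, positions 52214491 to 52221854), which is raised with Hoxa9 in KMT2A-rearranged leukemia, was the other abundant member. Wild-type held 1888, 1965, 2106 and 1956 normalized counts of it, and the KO-labelled libraries held 2083, 1758 and 1829. As for Hoxa9, KO-labelled replicates 2 and 3 lay below every wild-type library and replicate 1 lay inside their range. Hoxa7 had a log2 fold change of -0.07 (95% interval -0.23 to 0.09, limma adjusted p = 0.797). Hoxa7 and Hoxa9 together held 70.5 to 75.6% of the members' read pairs of wild-type libraries and 68.6 to 71.6% of KO-labelled ones. Of the exon length of Hoxa7, 20.4% is shared with the antisense gene Hoxaas3, and the strand setting of the count is not stated although the library kit keeps strand.

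Hoxa10 (ENSMUSG00000000938, positions 52231197 to 52240854) is a posterior gene next to Hoxa9, known for roles in the uterus and in myeloid progenitors. The wild-type libraries held 589, 681, 649 and 624 normalized counts of Hoxa10 and the KO-labelled ones 720, 757 and 701. Each of the 3 KO-labelled values was above the highest of the 4 wild-type values. Hoxa10 had a log2 fold change of 0.19 (SE 0.078, 95% interval 0.02 to 0.37). Its limma p was 0.0349 before and 0.458 after adjustment over all genes tested, and it did not pass the test. No exon of Hoxa10 is shared with another gene.

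Hoxa3 (ENSMUSG00000079560, positions 52169062 to 52213336), an anterior gene required for the thymus and parathyroid, was the other member without overlap. For wild-type the normalized counts were 530, 615, 538 and 547, and for the KO-labelled libraries 626, 621 and 650. The gap between the highest wild-type library, replicate 2, and the lowest KO-labelled one was narrow next to the spread within wild-type. Hoxa3 had a log2 fold change of 0.18 (SE 0.082, 95% interval -0.00024 to 0.37, limma adjusted p = 0.515). Of the Hoxa3 exon length, 27.1% is shared with other annotated genes on either strand and 8.01% with Gm28308 on the same strand, which a stranded count would not resolve. The megakaryocyte marker sum also lay higher without overlap in the KO-labelled libraries, but none of its 5 markers did so alone. Within that group the sum was highest in replicate 1, Hoxa10 in replicate 2 and Hoxa3 in replicate 3. The part of these markers in Hoxa10 and Hoxa3 was not tested.

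Hoxa5 (ENSMUSG00000038253, positions 52201754 to 52204587) acts in lung development and in myeloid and erythroid differentiation. Wild-type replicates 1 to 4 held 585, 781, 600 and 617 normalized counts of it, whereas the KO-labelled libraries held 766, 680 and 842. Wild-type replicate 2 stood away from the other 3 wild-type libraries and inside the KO-labelled range. The estimated log2 fold change was 0.24 (95% interval -0.02 to 0.51, limma adjusted p = 0.540), and the groups did not overlap once that library was left out. Its wild-type coefficient of variation was 14.1%, against 3.98% from counting alone.

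Hoxa6 (ENSMUSG00000043219, positions 52206288 to 52208722), the neighbour of Hoxa5 and a less studied member, reached 190, 217, 198 and 211 normalized counts for wild-type. The KO-labelled libraries reached 243, 201 and 278. KO-labelled replicates 1 and 3 lay above every wild-type library, whereas replicate 2 lay inside their range. Hoxa6 had a log2 fold change of 0.23 (95% interval -0.09 to 0.55, limma adjusted p = 0.642).

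Hoxa2 (ENSMUSG00000014704, positions 52162417 to 52164831), which patterns the hindbrain and the second pharyngeal arch, was low. Wild-type libraries held 108, 117, 99.999 and 112 normalized counts of Hoxa2, and KO-labelled ones held 117, 93.1 and 72.0. KO-labelled replicates 2 and 3 were below the wild-type range and replicate 1 was inside it. Its log2 fold change was -0.24 with a wide 95% interval of -0.69 to 0.21 (limma adjusted p = 0.738). Of its exon length, 15.0% is shared with Gm28308. That gene was listed at 0 in every library but has no exon stretch outside other annotated genes, so this 0 does not give its level.

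Hoxa4 (ENSMUSG00000000942, positions 52189671 to 52191753), an anterior gene that also acts in the skeleton, was the lowest of the 8 tested members. The wild-type libraries held 46.2, 37.9, 36.8 and 33.6 normalized counts and the KO-labelled ones 31.3, 41.5 and 23.0, with overlap. Its estimated log2 fold change was -0.30 (95% interval -0.94 to 0.35, limma adjusted p = 0.786). Of its exon length, 16.0% is shared with Gm29430. Counting error was large for this gene, at a coefficient of variation of 16.3% in wild-type, where the observed one was 13.9%.

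Hoxa11 (ENSMUSG00000038210, positions 52242106 to 52245810), a tail-side gene of the limb, kidney and uterus, was listed at 0 in 6 of 7 libraries. The remaining library, KO-labelled replicate 3, held 2 read pairs, or 1.92 normalized counts. Of its exon length, 34.98% is shared with the antisense gene Hoxa11os. Both groups were below the limit that a count of 0 allows, and no fold was computed. Hoxa11 was thus not detected at this depth, next to Hoxa10 with at least 589 normalized counts in every library.

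**Figure D2:**
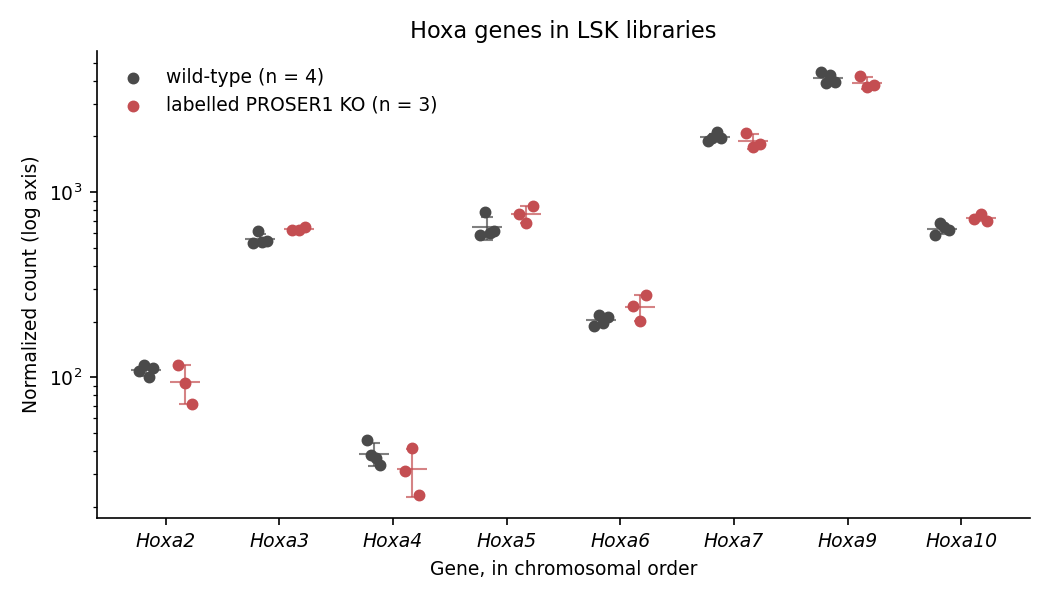
Normalized counts (log axis) of the 8 tested Hoxa genes in each library, in chromosomal order. Points are libraries, horizontal marks are means and bars are SD (n = 4 wild-type, n = 3 KO-labelled); the groups are apart for Hoxa3 and Hoxa10 and overlap for the other 6, with wild-type replicate 2 high in Hoxa5.

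The comparison of PROSER1 KO with wild-type asks whether loss of this TET interactor changes Hoxa RNA in stem and progenitor cells. Of the 9 members, 8 passed the filter on low values (a mean of at least 10 normalized counts) and 0 were called, by limma, edgeR or DESeq2, at an adjusted p under 0.05 and a fold change above 1.5. Over all 16251 genes tested limma called 42, or 0.258% (0.123% higher and 0.135% lower in the KO-labelled libraries), while edgeR called 0.246% of these and DESeq2 called 165, or 0.873%, of the 18903 genes to which it gave an adjusted p. At an unadjusted p under 0.05, 1 member (Hoxa10) passed by limma, 2 (Hoxa10 and Hoxa3) by edgeR and 0 by DESeq2. Limma passed 9.73% of all genes, and this share was not computed for edgeR or DESeq2. Of the 8 members, 4 were higher (Hoxa3, Hoxa5, Hoxa6 and Hoxa10) and 4 lower (Hoxa2, Hoxa4, Hoxa7 and Hoxa9) by their log2 fold change, against 50.6% of all genes higher. The median log2 fold change was 0.06 over the members and 0.0015 over all genes tested.

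For 6 of the 8 members the 95% interval lay within a 1.5-fold change in either direction. The exceptions were Hoxa2 and Hoxa4, the least abundant, whose intervals reached -0.69 and -0.94 on the log2 scale. A change of the size needed for a call was thus outside the interval for Hoxa3, Hoxa5, Hoxa6, Hoxa7, Hoxa9 and Hoxa10. Smaller changes could not be called, since a call needs more than 1.5-fold, and each interval still holds some changes below that size. The groups did not overlap for 2 of 8 members, both higher in the KO-labelled libraries. Of all genes tested 10% did not overlap, 5.17% with the KO-labelled libraries higher.

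KO-labelled replicates 1 and 2 bear on how members separate. Without replicate 1, 5 of 8 members did not overlap, with Hoxa3 and Hoxa10 higher and Hoxa2, Hoxa7 and Hoxa9 lower, where 19% of all genes did not overlap. Without replicate 2 the number was 4, with Hoxa3, Hoxa6 and Hoxa10 higher and Hoxa4 lower, against 19.4% of all genes. KO-labelled replicate 1 also stood apart in some lymphoid markers, though not in all. Cd3g, a subunit of the T cell receptor complex, reached 697 normalized counts there and at most 52.9 in the other libraries, Cd3e reached 197 against at most 24.0, and the recombinase gene Rag1 reached 2920 against at most 1240. The summed lymphoid-primed progenitor markers were 98433 in this library and 67876 to 95771 in the other 6. Flt3, Notch1, Satb1 and Klrd1 were also highest in KO-labelled replicate 1. Dntt, Il7r and Gata3 were instead highest in wild-type replicate 1, at 44858, 2971 and 1589 normalized counts. KO-labelled replicate 1 held 41391, 2643 and 1187 of them, and its Cd48, Cd4 and Nkg7 lay inside the range of the other libraries. The part of these markers in the members' separation was not tested.

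Without wild-type replicate 2 the number of members without overlap was 3, with Hoxa5 added to Hoxa3 and Hoxa10, against 14.1%. Groups that are apart with all 7 libraries stay apart when 1 is left out, so Hoxa3 and Hoxa10 could not come to overlap. Over all genes the share without overlap was 13.4, 14.1, 16 and 15.4% without wild-type replicates 1 to 4. It was 19, 19.4 and 17.9% without KO-labelled replicates 1 to 3.

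**Figure D3:**
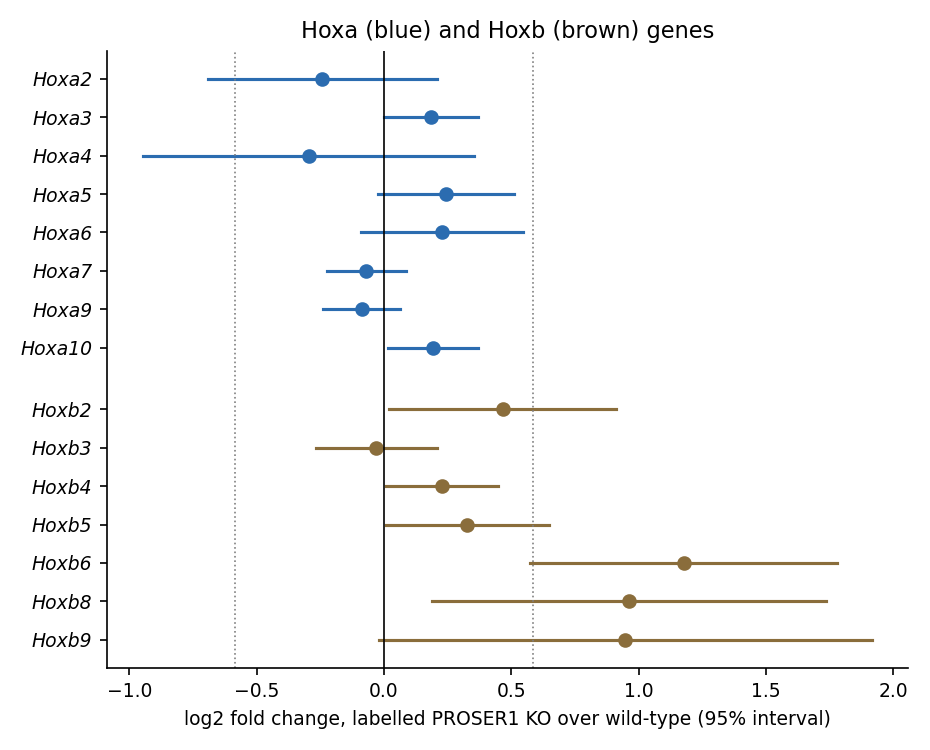
Log2 fold change of KO-labelled over wild-type libraries with its 95% limma interval for 8 Hoxa and 7 Hoxb genes; dotted lines mark 1.5-fold in either direction. The Hoxa estimates lie between -0.30 and 0.24, and those of Hoxb6, Hoxb8 and Hoxb9 near 1.

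The rest of the cluster held few read pairs. Up to and including Evx1 at the tail end, the annotated cluster holds 39 genes, and the 30 that are no members took 0.593 to 1.18% of the cluster's read pairs per library. Of these, 20 were listed at 0 in all libraries, among them Hoxa13, Evx1, the long RNA Hottip at the tail end and the microRNA gene Mir196b, whose short mature product this library type does not capture well. Of these 20, 10 (Mir196b and Gm28308 among them) have no stretch of exon outside other annotated genes, so a count that leaves out ambiguous read pairs could give them none at any level. Another 8 were below the filter, such as Hotairm1, a long antisense RNA, with 0.962 to 12.5 normalized counts, and Hoxa11os, the antisense partner of Hoxa11, with 0 to 7.30.

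The other 2 were tested and not called. Hoxaas3, whose exons overlap those of Hoxa7 and Hoxa3 on the other strand, reached 46.8 ± 18.8 normalized counts for wild-type (SD, n = 4) and 32.7 ± 8.53 for the KO-labelled libraries (SD, n = 3), with a limma adjusted p of 0.735. Hoxa7, whose exons it shares in part, had 1758 or more normalized counts in every library.

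Among the 4 Hox clusters, Hoxa held most of the RNA, with a smaller share in the KO-labelled libraries. The Hoxa genes of the cluster made up 81.9, 79.6, 83.3 and 79.1% of all Hox read pairs across wild-type replicates 1 to 4, and 78.4, 77.5 and 76.7% across the KO-labelled replicates. The groups did not overlap, and their means were 81.0 ± 1.97 and 77.5 ± 0.833% (SD). Hoxb held 16.4 to 20.4% of them for wild-type and 21.1 to 22.4% for the KO-labelled libraries, also without overlap. Hoxc held 0.169 to 0.354 and 0.482 to 0.835%, and Hoxd at most 0.0912%. These are shares, so a lower Hoxa share goes with a higher Hoxb and Hoxc share by construction. As a part of all read pairs the Hoxa members overlapped between groups, with 197 to 223 CPM for wild-type and 205 to 227 CPM for the KO-labelled libraries.

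**Figure D4:**
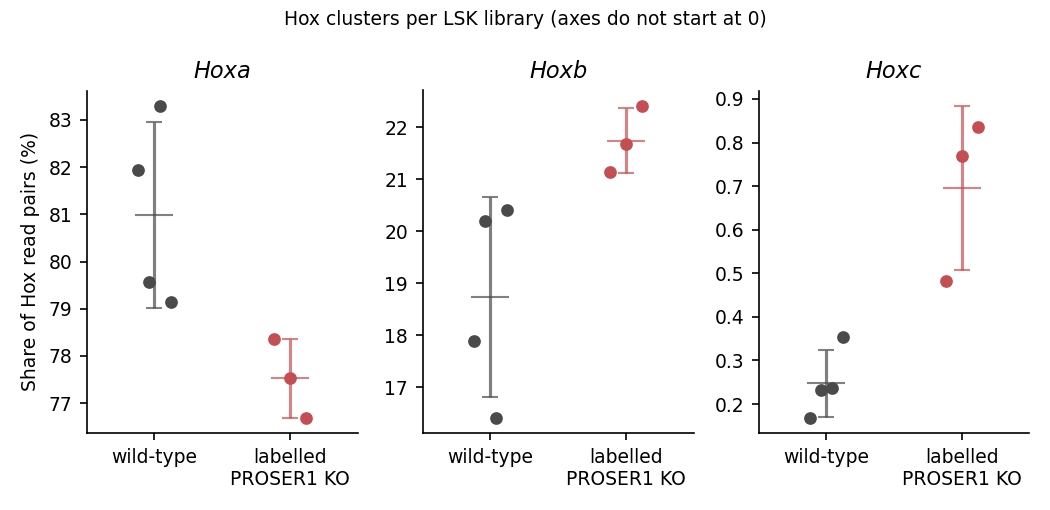
Share of all Hox read pairs held by the Hoxa, Hoxb and Hoxc clusters in each library, in percent (axes do not start at 0; bars are mean and SD, n = 4 and n = 3). The Hoxa share lies between 79.1 and 83.3% for wild-type and between 76.7 and 78.4% for the KO-labelled libraries, and the Hoxb and Hoxc shares lie higher in the latter.

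Of the 10 Hoxb genes 7 were tested, and 6 had a positive and 1 a negative log2 fold change. None was called by limma. At an unadjusted limma p under 0.05, 5 of 7 passed, against 9.73% of all genes tested. The groups did not overlap for 2 of 7, Hoxb5 and Hoxb6, against 10% of all genes tested. Hoxb6, a middle gene of its cluster, reached 67.3, 108, 63.2 and 133 normalized counts for wild-type and 221, 183 and 203 for the KO-labelled libraries. The KO-labelled libraries were thus all above the wild-type ones. Its log2 fold change of 1.18 missed the limma threshold (adjusted p = 0.160) and was called by DESeq2 (adjusted p = 0.0020). Hoxb4, which promotes stem cell expansion when overexpressed, had a log2 fold change of 0.23 (limma adjusted p = 0.486), Hoxb3 one of -0.03 (0.954) and Hoxb8 one of 0.96 (0.400). In the Hoxc cluster 2 genes were tested, Hoxc4 with a log2 fold change of 2.13 (limma adjusted p = 0.259) and Hoxc6 with 1.12 (0.381). Hoxc4 held 1.16 to 5.41 normalized counts for wild-type, near the limit that a count of 0 allows, and 9.39 to 28.8 for the KO-labelled libraries. It passed the filter on low values only through the latter, so the size of its fold change is uncertain. None of the 9 Hoxd genes reached the filter.

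Because paralogs of the same number in the Hoxa and Hoxb clusters descend from a common gene, the log2 ratio of each Hoxa gene to its Hoxb paralog was compared between groups, a comparison added after the values were seen. The test was a two-sided exact permutation test over all 35 assignments of 4 and 3 libraries, which cannot give a p below 0.0286. The ratio of Hoxa2 to Hoxb2 differed by -0.71 on the log2 scale (KO-labelled minus wild-type), and that of Hoxa3 to Hoxb3 by 0.21, both without overlap and with an exact p of 0.0286 (0.0857 adjusted over 6 pairs). For Hoxa6 and Hoxb6, also without overlap, the difference was -0.95 (exact p = 0.0571, adjusted p = 0.114), for Hoxa9 and Hoxb9 -1.03 (0.0857 and 0.129), for Hoxa4 and Hoxb4 -0.52 (0.143 and 0.171) and for Hoxa5 and Hoxb5 -0.08 (0.629 and 0.629). No pair passed after adjustment. A pass was possible only if several of the 6 pairs reached 0.0286 together, so the adjusted values cannot decide on a single pair.

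The RNA of genes whose proteins work with or on the Hoxa genes was measured too, and 0 of the 81 tested genes outside the members in these lists and clusters were called by limma. Among the TALE cofactors, homeodomain proteins that bind DNA together with HOX proteins, 8 were tested, 3 with a positive and 5 with a negative log2 fold change. Meis1 had 7943 ± 338 normalized counts for wild-type and 7528 ± 329 for the KO-labelled libraries (log2 fold change -0.08, limma adjusted p = 0.665). Pbx3 had a log2 fold change of 0.40 (limma adjusted p = 0.396) and Meis3 one of -0.86 (0.423).

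Of 20 activators of Hoxa transcription, such as the KMT2A and DOT1L complexes and the CDX factors, 17 were tested, with 8 positive and 9 negative log2 fold changes from -0.15 to 0.16. Kmt2a, the histone H3K4 methyltransferase, had 0.16 (limma adjusted p = 0.587), its partner Men1 -0.06 (0.753) and the H3K79 methyltransferase Dot1l -0.05 (0.790). Cdx4, an upstream activator of Hox genes in embryonic blood, was listed at 0 in every library. All 17 Polycomb and related repressors were tested, with 10 positive and 7 negative log2 fold changes, and the groups did not overlap for 5 of 17, against 10% of all genes tested. Pcgf2, a subunit of Polycomb repressive complex 1, lay lower without overlap in the KO-labelled libraries at -0.27 (limma adjusted p = 0.271). Cbx8, of the same complex, and Eed, of Polycomb repressive complex 2, lay higher without overlap at 0.20 (limma adjusted p = 0.442) and 0.12 (0.432), and Ezh2, the H3K27 methyltransferase, had 0.09 (0.605). The 6 boundary and cohesin genes lay between 0.00095 and 0.12.

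Among 16 genes known as targets of HOXA9 and MEIS1, 5 had a positive and 11 a negative log2 fold change, with a median of -0.05. Id2, an inhibitor of basic helix-loop-helix factors, lay lower without overlap, with 781 ± 218 normalized counts for wild-type (SD, n = 4) and 474 ± 43.0 for the KO-labelled libraries (SD, n = 3). Its log2 fold change of -0.69 missed the limma threshold (adjusted p = 0.213) and was called by DESeq2 (adjusted p = 0.0018). Flt3, a cytokine receptor, had a log2 fold change of 0.09 (limma adjusted p = 0.794), the transcription factor Myb -0.06 (0.782), Sox4 -0.08 (0.824) and the kinase Cdk6 0.15 (0.472). Of the 9 genes flanking the cluster 7 were tested, with Skap2, an adaptor protein gene, at -0.01 (limma adjusted p = 0.964).

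Start site sequences of 8 members were compared with RefSeq windows of 300 bases, from 250 before to 50 after the start, on GRCm38.p6. The number of CpG dinucleotides, the main sites of DNA methylation in mammals, had a median of 15 over 9 windows of the members, where Hoxa10 has 2, and of 7 over all 32851 windows. Of these windows, that of Hoxa9, the most abundant member, had the fewest CpG, with 4, and that of Hoxa5 the most, with 29. Hoxa7 and Hoxa2 had 9 each, Hoxa11 15, Hoxa3 20, Hoxa6 26 and the Hoxa10 windows 12 and 21. Hoxa11, with next to no RNA, thus lay at the members' median. The single windows of Hoxa9 and Hoxa7 lie inside these genes, which have 5 annotated transcripts each and begin at 52231089 and 52221854. Their other annotated starts were not read, and which start LSK cells use was not tested. The bases upstream of the start are shown for the most abundant member, the member richest in CpG and the silent one, 5′ to 3′ on the reverse strand, with each CpG in capitals.
Hoxa9, chr6:52227371-52227620: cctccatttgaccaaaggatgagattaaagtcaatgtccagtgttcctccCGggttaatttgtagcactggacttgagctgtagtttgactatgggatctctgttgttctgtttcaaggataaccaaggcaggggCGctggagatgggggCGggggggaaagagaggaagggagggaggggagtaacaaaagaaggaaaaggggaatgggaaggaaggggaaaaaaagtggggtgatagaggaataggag
Hoxa5, chr6:52204588-52204837: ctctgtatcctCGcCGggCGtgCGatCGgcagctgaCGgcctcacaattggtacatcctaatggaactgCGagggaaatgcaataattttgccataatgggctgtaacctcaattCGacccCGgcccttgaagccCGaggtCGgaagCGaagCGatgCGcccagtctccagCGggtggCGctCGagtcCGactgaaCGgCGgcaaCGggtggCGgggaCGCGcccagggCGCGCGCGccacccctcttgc
Hoxa11, chr6:52245811-52246060: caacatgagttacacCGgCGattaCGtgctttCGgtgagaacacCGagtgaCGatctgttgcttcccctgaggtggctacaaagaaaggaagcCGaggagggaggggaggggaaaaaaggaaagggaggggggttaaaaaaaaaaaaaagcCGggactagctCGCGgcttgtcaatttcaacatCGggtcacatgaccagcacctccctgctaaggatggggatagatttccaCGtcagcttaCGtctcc

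Short motifs were searched on both strands of the same windows, and a match is a description of the letters only. The CCAAT box (CCAAT) was in windows of Hoxa2, Hoxa5, Hoxa6 and Hoxa10, against 37.4% of all windows, and the TATA box (TATAAA) was in 1 Hoxa10 window, against 13.6%. The MEIS letters TGACAG was in those of Hoxa2 and Hoxa3 (19.2% of all), the PBX-HOX letters TGATNNAT in that of Hoxa2 (8.85%) and the CDX letters TTTATG in that of Hoxa7 (11.9%).

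The members also share a microRNA within the cluster. Mir196b (positions 52230081 to 52230165) lies inside an exon of Hoxa9 on the same strand, and its mature product miR-196b-5p (positions 52230129 to 52230150) pairs through its seed, bases 2 to 8, with target RNAs and lowers them. The letters complementary to the seed, ACTACCT, occurred in the longest annotated 3′ UTR of 4 of the 9 members, namely Hoxa4, Hoxa5, Hoxa7 and Hoxa9, and in 6.12% of 21069 genes with a 3′ UTR. Hoxa7 carried 4 copies, at bases 310, 347, 479 and 500 of its 3′ UTR of 1219 bases, and the other 3 members carried 1 each. The mature sequence from RefSeq is shown with its seed in capitals, followed by the 29 bases around each copy from the GENCODE transcripts, with the complementary letters in capitals.
miR-196b-5p: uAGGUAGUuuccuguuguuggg
Hoxa4, base 269: actggccatcgACTACCTttgagtcagcc
Hoxa5, base 456: tttttattcaaACTACCTatattccttgt
Hoxa7, base 310: acagccaaaatACTACCTagcacaggcct
Hoxa7, base 347: ggcactcccaaACTACCTatgggcccagc
Hoxa7, base 479: ccatgatcaatACTACCTactactagccc
Hoxa7, base 500: actagccctaaACTACCTattgtgtgctg
Hoxa9, base 337: aaggaaagaaaACTACCTttttatataat

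The members that carry these letters had log2 fold changes of both signs. The estimates were -0.30 for Hoxa4, 0.24 for Hoxa5, -0.07 for Hoxa7 and -0.09 for Hoxa9, and none was called. The precursor gene was at 0 in all libraries, so its level was not measured here.

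The mean deviation of the 8 tested members from their group means, on the log2 scale, ranged from -0.06 in KO-labelled replicate 3 to 0.08 in KO-labelled replicate 1. Outside the cluster the tested genes with the most similar deviations were Timm17a (Pearson r = 0.994), Hnrnpl (0.988) and Trim46 (0.981) over 7 libraries. They are the top of 16251 genes over few libraries that share a size factor, and r is given as a description.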

How the data were processed

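RNA-seq of 7 mouse LSK libraries was analysed. The authors used Trimmomatic, STAR (mm10 genome) and featureCounts to obtain read pairs per gene, scaled by DESeq2 size factors, and the deposited values are this normalized signal per gene, without a filter on low values. The methods name GENCODE release M25, a column header names vM10, and coordinates here are from GENCODE M21 (GRCm38), which holds 99.2% of the table's gene IDs. Whole read pairs were recovered within 0.01 for 100% of values, and 0 columns were left unused. Genes without a symbol (685) stayed in the tests.

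Groups follow the labels and were compared in R 4.3.3 with limma 3.58.1 (lmFit, eBayes with trend) on log2(normalized count + 1). The 16251 genes tested had a mean normalized count of 10 or more. Fold changes are on that scale. P-values were adjusted by Benjamini-Hochberg, and calls needed both an adjusted value below 0.05 and more than a 1.5-fold difference. edgeR 4.0.16 (quasi-likelihood) and DESeq2 1.42.0 on recovered read pairs were alternatives, besides other pseudocounts, filters, variance models, normalizations, a replicate block and leaving out each library. Scripts were tested on simulated data.

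The members and gene lists were chosen with earlier results of these data known. Genes named in the text are the members, the genes of the cluster, any list gene called by 1 of the 3 tools, genes fixed by name and those with the highest and lowest log2 fold change of a list, and some of them are not reported here. Replicate numbers did not pair the libraries.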

Additional observations from a re-analysis of the deposited data

Results flagged for a closer look

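In groups of 4 libraries, the gap of the highest or lowest library to its nearest neighbour was compared with the group's range (Dixon's 95% limit), for 48 wild-type groups of values. Chance flags about 1 in 20 groups, and 2 were flagged here. Hoxa5 in wild-type replicate 2 had 780.666 normalized counts, with 0.836 of the range between it and the next library. Dot1l, the H3K79 methyltransferase, had 4684.97 normalized counts in wild-type replicate 1, below the other 3 wild-type libraries, with a gap of 0.846 of the range.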

How the results depend on the processing

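No Hoxa member was called under any of the alternatives run, and none changed the sign of its log2 fold change. The lowest adjusted p of a member was 0.458, for Hoxa10, as reported and 0.362 over the alternatives, for Hoxa5 without wild-type replicate 2, and that of Hoxa10 ranged from 0.427 to 0.708. Leaving out each library in turn gave 0 members called, a median log2 fold change over the members of 0.03 to 0.08, a difference in the Hoxa share of Hox read pairs of -4.07 to -2.68 percentage points, 6 or 7 steps of the level order that passed (7 in all), 2 to 5 members without overlap (5 without KO-labelled replicate 1, 4 without KO-labelled replicate 2) and 0 list genes called. The number of members without overlap cannot fall below 2 when a library is left out. A minimum mean of 50 moved the median log2 fold change from 0.06 to 0.18, since Hoxa4 left the members tested. DESeq2 called 2 list genes, Hoxb6 and Id2, where limma called 0 of 81, and among the cell type markers it called Mcpt8, a basophil protease, lower (DESeq2 adjusted p = 0.0414, limma adjusted p = 0.280).

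Replicate numbers are shared by the groups, and deviations of same-numbered libraries correlated at 0.0226, 0.0575 and -0.106, so the numbers do not pair them. With the replicate block, 35 genes were called against 42, with 0 members and a member median of 0.05. KO-labelled replicate 2 correlated best with wild-type replicate 3 and not with its own number. The number of genes called ranged from 17 without a variance trend to 165 by DESeq2. Depth limits Hoxa4 and Hoxa11 most. Shared exons limit Hoxa2 and Hoxa3, where reads of an overlapping gene on the same strand cannot be told apart. Hoxa4, Hoxa7 and Hoxa11 share exons only with genes on the other strand. Whether those reads were told apart is not known, since the strand setting of the count is not stated.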
